A study of Mus musculus with 2 samples.

Results

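The CC chemokines described here are 10 genes, Ccl2, Ccl3, Ccl4, Ccl5, Ccl6, Ccl7, Ccl8, Ccl9, Ccl11 and Ccl12, out of 18498 genes compared between control muscle and muscle depleted of mesenchymal progenitors. They were selected on their spot intensities and the authors' processed values on these same 2 arrays, and found by name: every probe whose symbol in the platform's annotation was one of these was a member, which gave 1 probe for each of the 10 genes. The probes' sequences were not used here, so cross-hybridization between related members was not tested. The control group was a female wild type:R26-DTA mouse and the depleted group a female Pdgfra-CreER:R26-DTA littermate, each represented by 1 array of gastrocnemius, a calf muscle, at 10 weeks of age. Both groups carried R26-DTA, a diphtheria toxin A gene at the Rosa26 locus that is silent until Cre recombinase acts on it, and both received tamoxifen for 5 days from 9 weeks of age, with the muscle frozen 2 days after the last dose. CreER, the form of Cre that tamoxifen activates, was made under the Pdgfra promoter in the depleted group, so that cells expressing Pdgfra were the targets of the toxin. By its label the control carried no CreER, and the effects of CreER itself and of depletion cannot be told apart. With 1 array per group there is no spread between animals, no test and no p-value, and any difference may also be one between 2 animals.

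CC chemokines are small secreted proteins named for a pair of adjacent cysteines near their start. They bind G protein-coupled receptors of the CCR family on leukocytes and draw these cells along a gradient into tissue. Ccl2, Ccl7 and Ccl12 bind Ccr2 on inflammatory monocytes, Ccl11 binds Ccr3 on eosinophils, and Ccl3, Ccl5, Ccl6 and Ccl9 act on Ccr1. In injured muscle, monocytes that enter through Ccr2 become the macrophages that clear debris. Fibroblasts, endothelial cells, macrophages and muscle cells can each make some of these ligands.

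All 10 genes lie on mouse chromosome 11 in 2 runs of uninterrupted protein-coding neighbours in the RefSeq annotation of GRCm38.p6. Ccl2, Ccl7, Ccl11, Ccl12 and Ccl8 form the first run, and Ccl5, Ccl9, Ccl6, Ccl3 and Ccl4 the other, with 26 protein-coding genes between the runs. No genome build is given for the array in the sources used here. The RefSeq promoter table held 5 of the 10 members. The 250 bases before the start of 4 of them are shown because these are the members with an entry that were at least 2-fold higher in depleted muscle in the authors' deposited values. They are given 5′ to 3′ on the strand of the gene in GRCm38.p6, and capitals mark motif matches.
Ccl8, chr11:82114935-82115184, plus strand: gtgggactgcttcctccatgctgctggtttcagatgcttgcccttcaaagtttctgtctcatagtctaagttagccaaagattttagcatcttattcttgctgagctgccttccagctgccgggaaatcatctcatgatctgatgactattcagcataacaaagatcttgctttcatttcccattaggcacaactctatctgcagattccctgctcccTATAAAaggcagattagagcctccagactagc
Ccl12, chr11:82101595-82101844, plus strand: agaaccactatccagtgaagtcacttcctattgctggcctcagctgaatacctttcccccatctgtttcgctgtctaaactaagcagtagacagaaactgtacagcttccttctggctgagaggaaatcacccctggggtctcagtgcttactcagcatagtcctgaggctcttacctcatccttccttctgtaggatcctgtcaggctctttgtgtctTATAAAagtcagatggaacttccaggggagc
Ccl9, chr11:83578637-83578886, minus strand: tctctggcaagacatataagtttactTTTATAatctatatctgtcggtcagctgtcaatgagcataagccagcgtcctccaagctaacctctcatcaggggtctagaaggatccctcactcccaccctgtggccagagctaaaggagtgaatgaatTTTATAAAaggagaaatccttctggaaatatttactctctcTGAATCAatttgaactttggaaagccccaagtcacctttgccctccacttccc
Ccl6, chr11:83593088-83593337, minus strand: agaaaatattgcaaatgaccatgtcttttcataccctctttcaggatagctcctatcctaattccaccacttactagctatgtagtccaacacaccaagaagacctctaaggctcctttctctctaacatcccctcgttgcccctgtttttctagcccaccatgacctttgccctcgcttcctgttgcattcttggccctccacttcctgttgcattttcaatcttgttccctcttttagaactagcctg

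4 motifs were searched on both strands of these windows. They included the TATA box TATAAA, the Sp1 site GGGCGG and one form of the NF-kappa-B site, GGGA and TTCC with any 2 bases between them. The last was TGANTCA, a loose form of the AP-1 site, which itself has G or C in place of N. The neighbours Ccl8 and Ccl12 each held 1 match, TATAAA on the gene's strand, at 32 to 27 bases before the start of Ccl8 and 31 to 26 bases before that of Ccl12. Ccl9 held TGANTCA at 53 to 47 bases before its start, as TGAATCA and so not as the AP-1 site itself. It also held 3 matches of TATAAA, of which a plus-strand and a minus-strand match overlap. Ccl6, and Ccl3, which is not shown, held no match in this window. Over 32536 RefSeq windows of the same length, TATAAA occurred in 12.3%, TGANTCA in 6.73%, GGGCGG in 33.0% and the NF-kappa-B form in 1.21%. In gapped alignments of these windows Ccl8 and Ccl12 were 56.9% identical, and the other 9 pairs of the 5 members ranged from 48.1% to 54.2%.

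Signal was read as spot intensity, the median pixel of a spot on a linear scale. Blank spots averaged 36.3 with an SD of 0.581 in control and 37.0 with an SD of 0.778 in depleted muscle, and a probe counted as above background where it exceeded the blanks by 2 SD. 24 spots of each kind of positive control varied within an array with a coefficient of variation of 6.59% to 10.9%, the only repeat measure of brighter spots on these arrays. The array of depleted muscle read lower for Pdgfra, the gene that drives Cre: processed intensities fell from 273.1 to 116.6, and the normalized level was 1.91-fold lower. Markers of myofibres, 9 of 9, were above background on both arrays, with a median log2 ratio of -0.067 on the normalized scale and 1 of them, Pvalb (-1.25), past 2-fold. Their summed processed intensities were 348090 in control and 245770 in depleted muscle, whereas the spots of creatine kinase Ckm read 37190 and 38090 and those of the troponin Tnnt3 38950 and 42020, since the processed values hold a larger multiplier for the control array (1.27) than for the depleted one (0.939). In whole muscle, fewer cells of a type and less RNA per cell cannot be told apart.

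Ccl2, Ccl7, Ccl6, Ccl8 and Ccl9 were higher in depleted muscle by 2-fold or more, Ccl12 and Ccl5 were above control by less, Ccl3 and Ccl4 lay too close to the negative control spots for a difference to be read, and Ccl11 was below control. On the normalized scale 5 of 10 members were thus past 2-fold upward, as were 0.492% of all 18498 genes, and 0 of 10 were past it downward, as were 0.427%. Of all genes, 47.4% had a ratio above 0 and 52.4% below. In the authors' processed values 6 of 10 members were past 2-fold upward and 0 downward, against 2.91% and 1.98% of the 17919 genes with a value on both arrays. The median log2 ratio of depleted over control was 0.74 for the members and -0.0036 for all genes. The members were chosen with these values known, so the counts describe them and test nothing. Scaling the arrays to their medians in place of quantiles gave 216 higher and 38 lower genes in all, against 91 and 79, and 5 of 10 members were at least 2-fold higher there too. Normalized values carry an added offset of 50 intensity units that draws the ratios of dim probes toward 0, and the processed values do not, so both are given for each member.

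**Figure D1:**
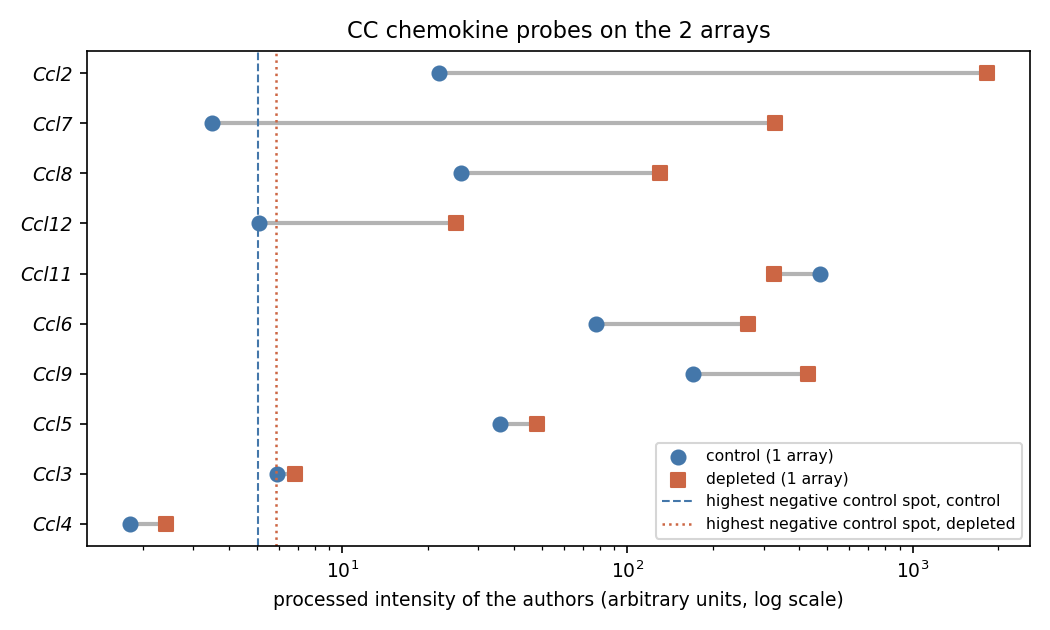
Processed intensity of each CC chemokine probe in arbitrary units on a log axis, with a circle for the control array and a square for the depleted array and vertical lines at the highest negative control spot of each array. Ccl2 moves from 21.8 to 1822.4 and Ccl7 from 3.5, left of the control line, to 330.2, while Ccl11 alone lies lower in depleted muscle, at 326.4 against 475.1.

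Ccl2, the main ligand that calls monocytes through Ccr2, had the highest ratio of all genes compared on the normalized scale. Its spot (probe M200000049) read 53.4 in control and 1978.7 in depleted muscle. The control spot lay 29.5 SD above the mean of the blanks, so Ccl2 was measured on both arrays. Processed intensities were 21.8 and 1822.4, an 83.6-fold difference, and the normalized log2 levels were 6.17 and 10.71, a log2 ratio of 4.54 or 23.3-fold. The 5 probes that adjoin its spot had a median log2 ratio of 0.015 and a highest of 0.42, and so did not share its difference. The ratio ranged from 4.47 to 6.39 under the 12 alternatives in processing.

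Ccl7, which shares Ccr2 with Ccl2 and also binds Ccr1 and Ccr3, read 39.0 in control and 388.8 in depleted muscle (probe M200003414). Its processed intensities were 3.5 and 330.2. The control value is close to background: its spot was 4.70 SD above the blanks but below the highest of the 96 negative control spots, which read 40.2. Set against that limit, which is 5.04 in processed units, Ccl7 was at least 65.5-fold higher, and no exact fold is given. The normalized log2 levels were 5.78 and 8.46, a log2 ratio of 2.68 or 6.39-fold, which ranked 5 of 18498 genes, and against the same limit at least 6.23-fold. Adjoining probes had a median log2 ratio of 0.092 over 4 spots.

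Ccl2 had the higher log2 ratio of these neighbours on the normalized scale, but their order changed with the processing. Ccl7 was at 6.55 and Ccl2 at 6.35 with blanks subtracted, and at 6.05 and 5.87 scaled to the positive control spots. With the local background column subtracted they were at 2.70 and 6.33. In processed values the limit for Ccl7, at least 65.5-fold, lies below the 83.6-fold of Ccl2, so the order of the 2 genes cannot be read there. Under each of the 12 alternatives both lay above the other 8 members.

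Ccl8 and Ccl12 also belong to the run around Ccl2. Ccl8 (probe M300001017) read 56.8 in control and 175.4 in depleted muscle, with processed intensities of 26.1 and 129.9, a 4.98-fold difference. Its normalized log2 ratio was 1.17. Ccl12 (probe M300009870) read 40.3 and 63.6, with processed intensities of 5.1 and 25.0, a 4.90-fold difference. Its control spot lay only just above the highest negative control, so this fold rests on a value at the edge of detection. On the normalized scale the log2 ratio of Ccl12 was 0.40, short of 2-fold, and it was past 2-fold under 4 of 12 alternatives. Ccl8 and Ccl12 thus had nearly the same ratio in processed values and different ones on the normalized scale.

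Ccl11, or eotaxin, which draws eosinophils through Ccr3 and is a product of fibroblasts in many tissues, was the only member with a lower level in depleted muscle on both the normalized and the processed scale. Its spot (probe M200001889) read 409.6 in control and 384.8 in depleted muscle, far above the blanks on both arrays. With the mean of the blanks subtracted these were 373.3 and 347.8, which the processed values multiply by 1.27 and 0.939. Processed intensities were 475.1 and 326.4, and the normalized log2 levels were 8.94 and 8.44, a log2 ratio of -0.50 or 1.41-fold lower. Of all genes compared, 2.28% had a lower ratio. The ratio of Ccl11 was below 0 under 11 of 12 alternatives, and was -0.21 with the arrays scaled to their medians. It was 0.48 with the local background column subtracted. That column read 254.9 in control and 171.6 in depleted muscle at Ccl11, far above the blanks, so subtracting it removes much of the spot's signal. Ccl11 lies between Ccl7 and Ccl12 on the chromosome, so the run around Ccl2 held both the highest and the lowest ratio of the 10 members.

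**Figure D2:**
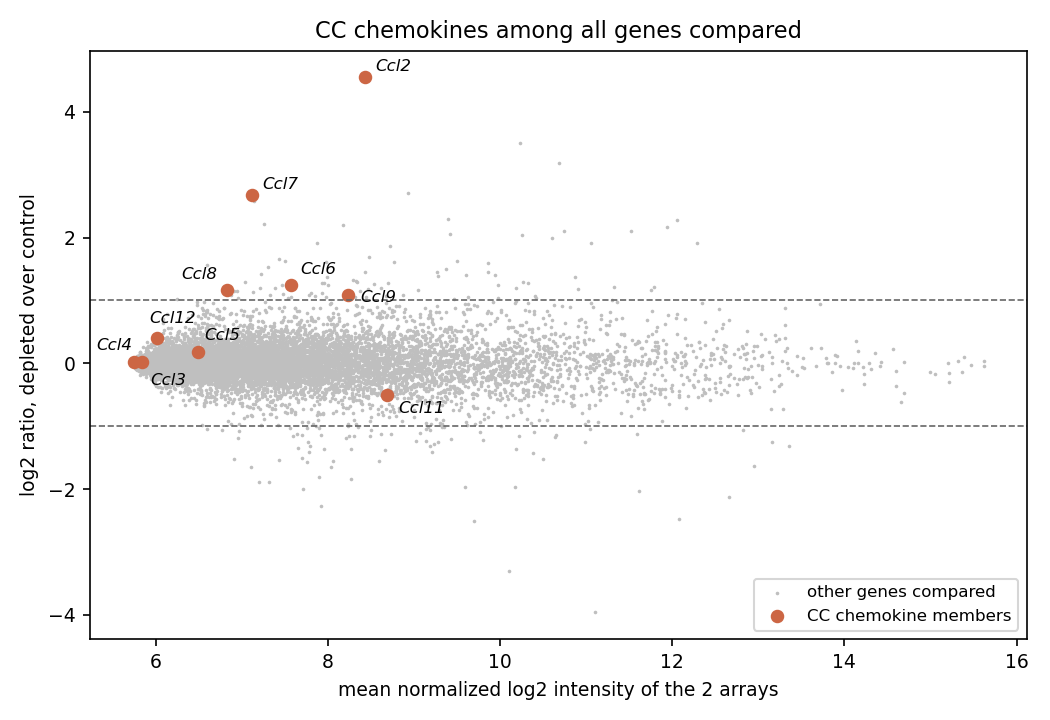
Log2 ratio of depleted over control against mean normalized log2 intensity for each of 18498 genes (grey) and the 10 CC chemokines (orange), with dashed lines at 2-fold. Ccl2 at 4.54 lies above every other gene, Ccl7 at 2.68 ranks 5, and Ccl11 at -0.50 is below 0.

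Ccl6 and Ccl9, neighbours in the other run, are chemokines of myeloid cells. Ccl6 (probe M200000046) read 97.4 in control and 319.4 in depleted muscle. Its processed intensities were 77.8 and 265.1, 3.41-fold higher in depleted muscle, and its normalized log2 ratio was 1.25. Ccl9 (probe M400000316) read 169.8 and 493.1. Its processed intensities were 169.9 and 428.1, a 2.52-fold difference, and its normalized log2 ratio was 1.08. Both genes were well above the blanks on both arrays, by at least 105.2 SD of the blanks. Ccl6 stayed past 2-fold under all 12 alternatives, and Ccl9 under 10, with 0.40 when the local background column was subtracted and 0.82 when the arrays were scaled to their positive control spots. The local background column read 72.8 in control and 368.9 in depleted muscle at Ccl9.

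Ccl5, Ccl3 and Ccl4 are chemokines that activated T cells and macrophages secrete, and of these Ccl5 alone was clear of the negative control spots. Ccl5 (probe M300009668) read 64.4 in control and 88.3 in depleted muscle, with processed intensities of 35.8 and 48.2 and a normalized log2 ratio of 0.18. Ccl3 (probe M400000025) read 40.9 and 44.1, just above the highest negative control spots of 40.2 and 43.2, with processed intensities of 5.9 and 6.8. Ccl4 (probe M200000467) read 37.7 and 39.5, below those spots on both arrays, so no level or fold is given for it. No alternative put any of these 3 genes past 2-fold, and at these intensities a difference in Ccl3 or Ccl4 was not detectable.

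By chromosomal run, 3 of the 5 genes around Ccl2 and 2 of the 5 around Ccl5 were at least 2-fold higher, with median log2 ratios of 1.17 and 0.18. In processed values these counts were 4 and 2. Ccl1, a CC ligand next to Ccl8 that is not a member, had a log2 ratio of -0.30.

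**Figure D3:**
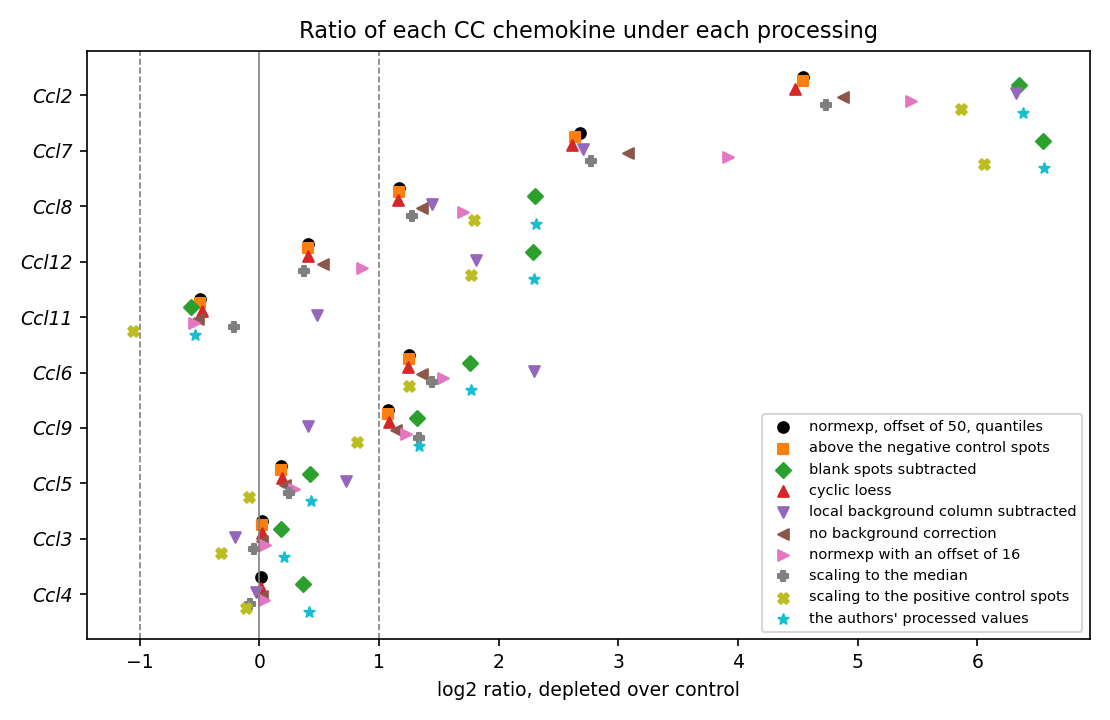
Log2 ratio of depleted over control for each CC chemokine under the main processing (black circles) and 9 of the 12 alternatives, with dashed lines at 2-fold. The 3 alternatives left out could not change a member's value, and Ccl2, Ccl7, Ccl8 and Ccl6 lie to the right of the line throughout.

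The genes with a ratio as high as that of Ccl7 on the normalized scale numbered 5 over these 2 arrays. Between Ccl2 and Ccl7 came Depp1 (3.51), a FoxO target, and the muscle ubiquitin ligases Fbxo32 (3.19) and Trim63 (2.71). These 3 were bright on both arrays, and their processed fold differences were 13.6, 10.2 and 8.81, below those of both chemokines. In processed values the 3 highest ratios belonged to chemokines, Ccl2, Ccl7 and Cxcl1, with no order between Ccl2 and Ccl7.

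Among the receptors, Ccr2 had the largest difference. The receptor of Ccl2, Ccl7 and Ccl12 on monocytes, Ccr2 read 60.0 in control and 142.3 in depleted muscle, with processed intensities of 30.2 and 98.9 and a normalized log2 ratio of 0.83. The other 9 measured receptors ranged from -0.05 to 0.06 in log2 ratio. Ccr4 had processed intensities of 3026.1 and 2993.1, Ccr1l1 of 47.0 and 51.5 and Ccr9 of 7.6 and 8.2. Ccr1, Ccr3, Ccr6, Ccr7, Ccr8 and Ccr10 were not above the negative control spots on both arrays. Only 4 of 10 receptors thus exceeded those spots on both arrays, and Ccr9 by little. The Ccr4 values lay above the summed T and NK cell markers (157.3 and 150.1), and whether its probe reports Ccr4 alone was not tested. On the normalized scale 0 of 10 receptors were past 2-fold. In processed values 2 were higher and 1 lower by that much, of which Ccr2 alone exceeded the negative control spots on both arrays.

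Atypical receptors, which take up chemokines without signalling to migration, and the chemokine-cutting protease Dpp4 had 2 ratios above 0 and 4 below, with a median log2 ratio of -0.016. Ackr3, which scavenges Cxcl12, had processed intensities of 407.4 and 196.9, past 2-fold on that scale, and a normalized log2 ratio of -0.90. Ccrl2, which presents chemerin on endothelium and leukocytes, was at 0.48, with 77.5 and 131.4. Ackr1, the chemokine receptor of venules and red cells, was at 0.22.

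Of 13 other CC ligands 7 were compared, and 0 were past 2-fold in normalized or in processed values. The median log2 ratio was -0.14 on the normalized scale and -0.43 in processed values. Ccl27a (-0.30) and Ccl1 (-0.30) had the largest differences on the normalized scale, followed by Ccl19 (0.27), a ligand of Ccr7 in lymphoid tissue. The largest log2 ratio in processed values was that of Ccl19, at 0.79, followed in size by Ccl22 at -0.54. Ccl20 was below background on both arrays, and so was Ccl28.

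Chemokines of the CXC and other classes had 1 of 15 genes past 2-fold upward on the normalized scale and 5 in processed values, with median log2 ratios of 0.092 and 0.36. The 5 include Cxcl2 and Cxcl5, whose empty control values were set to 1. With empty values set so, 675 of all 18498 genes were past 2-fold upward. Cxcl1, a neutrophil attractant, was at 2.59, with processed intensities of 6.3 and 323.9. The interferon-induced Cxcl10 was at 0.76 (15.3 and 65.5) and the B cell attractant Cxcl13 at 0.73 (31.9 and 90.7). Cxcl2, another neutrophil attractant, was below background in control and at 16.8 in depleted muscle, and so was Cxcl5, which read 5.8 there, in the range of the negative controls. Cxcl14, at -0.51, was the lowest.

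Of 16 cytokines that can induce or accompany CC chemokines, 10 exceeded the negative control spots on both arrays. On the normalized scale 8 had a ratio above 0 and 8 below, 0 were past 2-fold, and the median log2 ratio was 0.0049. In processed values 2 were past 2-fold upward, Il6 and Csf2, both from control spots below the highest negative control, and 1 downward, Il33. Il33, an alarmin made by mesenchymal progenitors, was above the negative controls on both arrays, with processed intensities of 70.9 and 26.2 and a log2 ratio of -1.44 in those values and -0.63 on the normalized scale. The macrophage growth factor Csf1 was at -0.55 (775.1 and 522.4). Il6 had processed intensities of 3.2 and 13.6 and a log2 ratio of 0.24, and its control spot was below the highest negative control. Tnf, at 1.6 and 2.1, lay in the range of the negative controls on both arrays, and Il1b was at 22.0 and 18.9.

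NF-kappa-B is a transcription factor that drives Ccl2 and many other inflammatory genes and induces its own inhibitors. Of 19 measured factors and targets 14 had a ratio above 0 and 5 below, with 0 past 2-fold on the normalized scale and 1, Relb, in processed values, and the median normalized log2 ratio was 0.064. Nfkbib, an inhibitor, was at 0.62, and the subunit Relb at 0.42. The feedback genes Tnfaip3 and Nfkbia were at -0.55 and -0.16, with processed intensities of 273.8 and 170.0 and of 1198.8 and 1084.7. The superoxide dismutase Sod2, another target, was at -0.42.

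**Figure D4:**
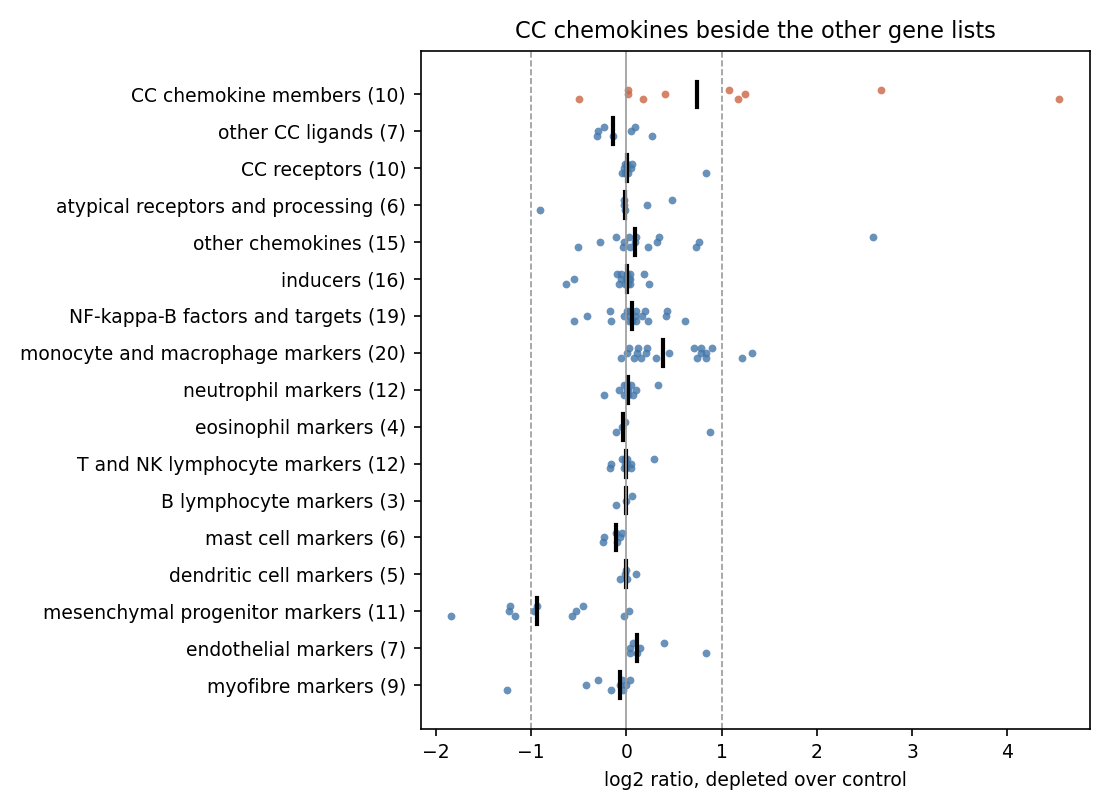
Log2 ratio of depleted over control for each gene of the CC chemokines (orange) and of 16 other lists (blue), with the number of genes in brackets, black bars at the list medians and dashed lines at 2-fold. The CC chemokines spread from -0.50 to 4.54, the monocyte and macrophage markers lie to the right of 0 in 19 of 20 genes, and the mesenchymal progenitor markers to the left in 10 of 11.

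Markers of monocytes and macrophages mostly lay above control, by very different amounts. Of 20 such genes 19 had a ratio above 0. On the normalized scale 2 were past 2-fold, with a median log2 ratio of 0.38, and in processed values 7 were, with a median of 0.78. Their summed processed intensity was 6083.1 in control and 10719 in depleted muscle. Much of that sum came from Lyz2 (1732.3 and 4337.4) and Ly6c2 (2248.8 and 2492.0). Lgals3 was at 1.32, Lyz2 at 1.22, C1qc at 0.90 and C1qb at 0.84. Some lineage markers differed less on the normalized scale, with the growth factor receptor Csf1r at 0.0039 and Ly6c2 of inflammatory monocytes at 0.079. Ly6c2, represented by the brighter of its 2 probes, read far above Ccr2 (30.2 and 98.9) in processed values. Whether that probe reports Ly6c2 alone was not tested. Folr2 and Lyve1 of resident macrophages were at 0.11 and -0.053. Adgre1 (F4/80), a dim probe, was at 0.12 there and at 0.66 in processed values. Others of the list lay higher on the normalized scale, with Ccr2 at 0.83, Plac8 at 0.79, Cd68 at 0.71, Cd163 at 0.44 and Mrc1 at 0.32. All 20 were above background on both arrays, though Cx3cr1, at 3.3 and 4.3, lay in the range of the negative controls. Chil3, a product of monocytes and alternatively activated macrophages, was at 1.7 in control, also in that range, and at 43.7 in depleted muscle. The part of these cells in the chemokine levels was not tested.

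Mesenchymal progenitor markers were lower in 10 of 11 genes, 4 of them at least 2-fold on the normalized scale and 6 in processed values, with a normalized median log2 ratio of -0.94 and summed processed intensities of 9177.6 and 5389.2. Lum was at -1.84, Dpt at -1.23, Col3a1 at -1.22 and Smoc2 at -1.16. Of the members Ccl11 had a ratio below 0 too, as did 52.4% of all genes. Whether its level is linked to these cells was not tested.

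Many markers of the other leukocytes did not exceed the negative control spots on both arrays, and their medians on the normalized scale are drawn toward 0. The markers that did exceed them were 4 of 12 for neutrophils, 3 of 4 for eosinophils, 5 of 12 for T and NK cells, 2 of 3 for B cells, 5 of 6 for mast cells and 1 of 5 for dendritic cells. In processed values the median log2 ratios of these lists were 0.23, -0.22, -0.066, -0.017, -0.46 and 0.41, in the same order. These medians include spots in the range of the negative controls and empty values set to 1. The dendritic cell median is that of Xcr1, at 1.2 and 1.6 in that range. Cd209a, the dendritic cell marker above it on both arrays, was at -0.20 in processed values. On the normalized scale neutrophil markers had a median log2 ratio of 0.014 over 12 genes and summed processed intensities of 374.7 and 362.7, with S100a8 at 0.34 and S100a9 at -0.23, and Mpo was below background in control. Eosinophil markers had a median of -0.031 over 4 genes, with summed intensities of 67.1 and 134.3 that rest on Ear6 (0.88, from 32.3 to 107.7). Siglecf was at 3.0 and 2.6, in the range of the negative controls, and Epx was below background on both arrays. T and NK cell markers had a median of -0.0074 over 12 genes, and the summed intensities were 157.3 and 150.1. Cd3g was below background, and Cd3e (2.2 and 2.6) and Nkg7 (2.7 and 2.9) lay in the range of the negative controls. B cell, mast cell and dendritic cell markers had medians of 0.0004, -0.10 and 0.0012, with summed intensities of 43.6 and 40.3, 300.2 and 241.5, and 36.1 and 38.9. Endothelial markers had a normalized median of 0.11 and a processed one of 0.21 over 7 genes, all above 0, with Cldn5 at 0.83 and summed intensities of 532.4 and 755.2. Whether any of these cells had a part in the chemokine levels was not tested.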

How the data were processed

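Per the file headers, the deposited scanner files give spot intensities: a spot's median pixel at 635 nm, linear, combined over 3 scan gains, without background subtraction. The authors' own table, also deposited, holds processed intensities; on each array these were a straight line through the spot values, namely the spot minus the mean of the blanks, times 1.27 (control) or 0.939 (depleted).

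Spots were corrected with normexp (offset 50, limma 3.58.1, R 4.3.3), turned into log2 values and quantile-normalized across 23473 probes. Each gene was represented by its brightest probe. Genes above the blanks by 2 SD on at least 1 array were compared. Symbols came from the platform's annotation (20690 probes with 1 symbol, 0 with several, 2783 with none), and by Entrez number all 10 members kept theirs in RefSeq. The steps were tested on simulated data in which only bright probes were changed, so the ratios of dim members were not tested there. Python 3.11.15, numpy 2.4.6, pandas 2.3.3 and matplotlib 3.10.9 served for tables and plots.

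The members and gene lists were chosen with earlier results of these data known. The rule named all members, Pdgfra, all measured receptors, genes with a ratio at least that of the second highest member, and 2 to 4 genes of each other list by size of ratio; further genes named were chosen after their values were seen. Precision is limited by the number of arrays, 1 per group. Alternatives covered background correction, normalization, filters on dim probes, probe choice and thresholds.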

Additional observations from a re-analysis of the deposited data

Results flagged for a closer look

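The positive control spots, which enter no comparison of genes, were brighter on the array of depleted muscle. On the scale of the processed values the 24 spots of positive control 2 averaged 1036 in control and 1655 in depleted muscle, a ratio of 1.6, and the 24 spots of positive control 3 averaged 7167 and 9198, a ratio of 1.28. They were singled out because they show a signal above that of the control array in data outside the genes. What these spots detect is not given in the sources used here. Scaling the arrays to them was done on spots with the mean of the blanks subtracted, without the offset and without quantiles. It put the median of all genes at -0.53. On that scale Ccl2 was at 5.87, Ccl9 at 0.82 and Ccl11 at -1.06. Set beside the normalized ratios, these values hold the loss of the offset as well as the scaling.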

How the results depend on the processing

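No paired analysis was possible because there was only 1 array in each group. Of the 12 alternatives, the limit at the negative control spots and the scaling to positive control spots were chosen after seeing the data. The scaling to positive control spots used blank-subtracted spots without the offset, so its ratios do not show the scaling alone. Of 119 member ratios, 112 kept their side of 2-fold, 5 came past it and 2, both of Ccl9, fell short. The 112 include ratios that could not change. Each member had 1 probe, above background on both arrays. Requiring signal on both arrays, dropping the filter on dim probes or averaging a gene's probes thus returned the main value. Those that came past were Ccl12 with blanks subtracted (2.28), with local background subtracted (1.81), scaled to the positive controls (1.77) and in the processed values (2.29), and Ccl11 scaled to the positive controls (-1.06), which made 1 member at least 2-fold lower. Short of 2-fold, the ratio was below 0 under 3 alternatives for Ccl3, 3 for Ccl4 and 1 for Ccl5, and above 0 under 1 for Ccl11. The members' median was 1.53 with blanks subtracted and 1.55 in processed values. At 3-fold 2 members were higher. All genes past 2-fold, higher and lower (91 and 79), were 363 and 282 at 1.5-fold, 27 and 17 at 3-fold, 502 and 360 with blanks subtracted, 1918 and 1986 with local background subtracted, 216 and 38 scaled to the median, 163 and 2242 scaled to the positive controls and 675 and 473 in processed values with empty ones set to 1; an offset of 16 gave 163 higher. Causes were not tested. The local background column lay far above the blanks at bright members. For Ccl2 in depleted muscle it read 1192 beside a spot of 1978.7, so subtracting it removes much of the signal. Signal over background limits Ccl4, Ccl3 and the control values of Ccl7 and Ccl12.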
